A study of Caenorhabditis elegans with 20 samples.

Results

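The mitochondrial unfolded protein response is a program that cells use when proteins misfold or pile up in the mitochondrial matrix. In *C. elegans* the matrix protease CLPP-1 degrades misfolded protein, and the transcription factor ATFS-1, which is normally imported into mitochondria, goes to the nucleus when import falters. There it acts with DVE-1 and the ubiquitin-like protein UBL-5 to raise the mitochondrial chaperones, and reporters of *hsp-6* and *hsp-60* are the usual readout of the response. Expression of 7 genes of this program was followed here over 4 genotypes of the insulin/IGF-1 pathway. They are the chaperone genes *hsp-6*, *hsp-60* and *dnj-10*, the protease gene *clpp-1* and the signalling genes *ubl-5*, *dve-1* and *atfs-1*. They were chosen by name, as every probe set whose annotation gave 1 of these symbols alone. This gave 12 probe sets out of 22548 on the array, and 7 of the 17118 genes measured.

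RNA from whole adult worms was hybridised to 20 Affymetrix whole-genome arrays, 5 for each genotype. *daf-2* is the worm's insulin/IGF-1 receptor gene, and *daf-16* is its FOXO transcription factor gene, whose product enters the nucleus when receptor signalling is low. The genotypes were *glp-4*(bn2) with *daf-2*(e1370), *glp-4*(bn2) with *daf-2*(m577), and each of these with *daf-16*(mgdf50), a loss of *daf-16* function. They are called e1370 and m577, with or without *daf-16*. Every strain carried *glp-4*(bn2) and a *daf-2* mutation, so no animal with normal *daf-2* was among the groups, and each comparison is between mutants. *glp-4*(bn2) is a temperature-sensitive mutation that blocks germ line growth at the restrictive temperature. Per the labels, worms hatched at 20 °C, grew at 15 °C until most were L4 larvae, were then kept at 25 °C, and were collected as sterile adults 1 day old, with 8 plates pooled into each biological replicate. Levels are the deposited log2 values of the Robust Multi-chip Average (RMA), so a difference of 1 is a doubling of signal. Each value comes from the probe set of the gene with the highest mean unless another is named.

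The array medians lay between 6.41 and 6.57. Background was read from 15 control probe sets for Bacillus genes that worms lack, whose median was 4.57 and whose highest was 6.29. Likeness within a genotype varied, with lowest correlations between arrays across probe sets of 0.786 in e1370 without *daf-16*, 0.854 in e1370, 0.880 in m577 and 0.956 in m577 without *daf-16*. Germ line transcripts were abundant and uneven: the mean level of 43 sperm genes ran from 7.68 to 11.08 over the arrays and that of 42 oocyte and germ cell genes from 7.79 to 10.59. The sperm genes were lowest on m577 replicate 3, on e1370 without *daf-16* replicate 5 and on e1370 replicate 4, where the oocyte genes were among the highest. Markers of the soma were present on every array, with mean levels of at least 7.95 for intestine, 8.86 for body wall muscle, 8.58 for hypodermis and 7.34 for neurons. Fewer cells of a type and less RNA per cell cannot be told apart in such whole-animal RNA. *daf-16* itself read higher where present on probe sets 175678_at, by 0.76 ± 0.19 (SE), and 181992_s_at, by 0.69 ± 0.17 (limma adjusted p = 0.0174 and 0.0175). For 175823_s_at and 188176_s_at the differences were 0.07 ± 0.27 and 0.38 ± 0.25. The sources used here do not say which *daf-16* probe sets the deletion covers, and one outside it would not test the genotype.

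None of the 7 genes and none of the 12 probe sets passed the test in any of the 6 comparisons, namely *daf-16* present minus absent (over both alleles, within e1370, and within m577), a test of whether that difference varied with the allele, and e1370 minus m577 in animals with *daf-16* and in animals lacking it. The test was limma over all 22548 probe sets, and a call was an adjusted p under 0.05 by Benjamini and Hochberg's method. Over both alleles, 0 of 7 genes were called, where 6.32% of all probe sets were. In e1370 it was 0 of 7 beside 4.38%, and in m577 0 of 7 beside 1.79%. For the difference between the *daf-16* differences it was 0 of 7 beside 0.177%, and for e1370 against m577 0 of 7 beside 1.32% with *daf-16* and 0.00443% without it. At shares this low, 0 of 7 does not set the genes apart from the other probe sets. At an unadjusted p under 0.05 the counts of genes, in the same order, were 1, 0, 1, 1, 2 and 0 of 7, where the shares of all probe sets were 15.6%, 11.3%, 13.1%, 5.53%, 14.7% and 3.44%. Arrays of the compared genotypes did not overlap for 1 of the 7 genes, *dnj-10* in m577. All probe sets without overlap made up 3.78% for *daf-16* in e1370, 6.66% for *daf-16* in m577, and 3.02% and 0.648% for the alleles with and without *daf-16*.

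**Figure D1:**
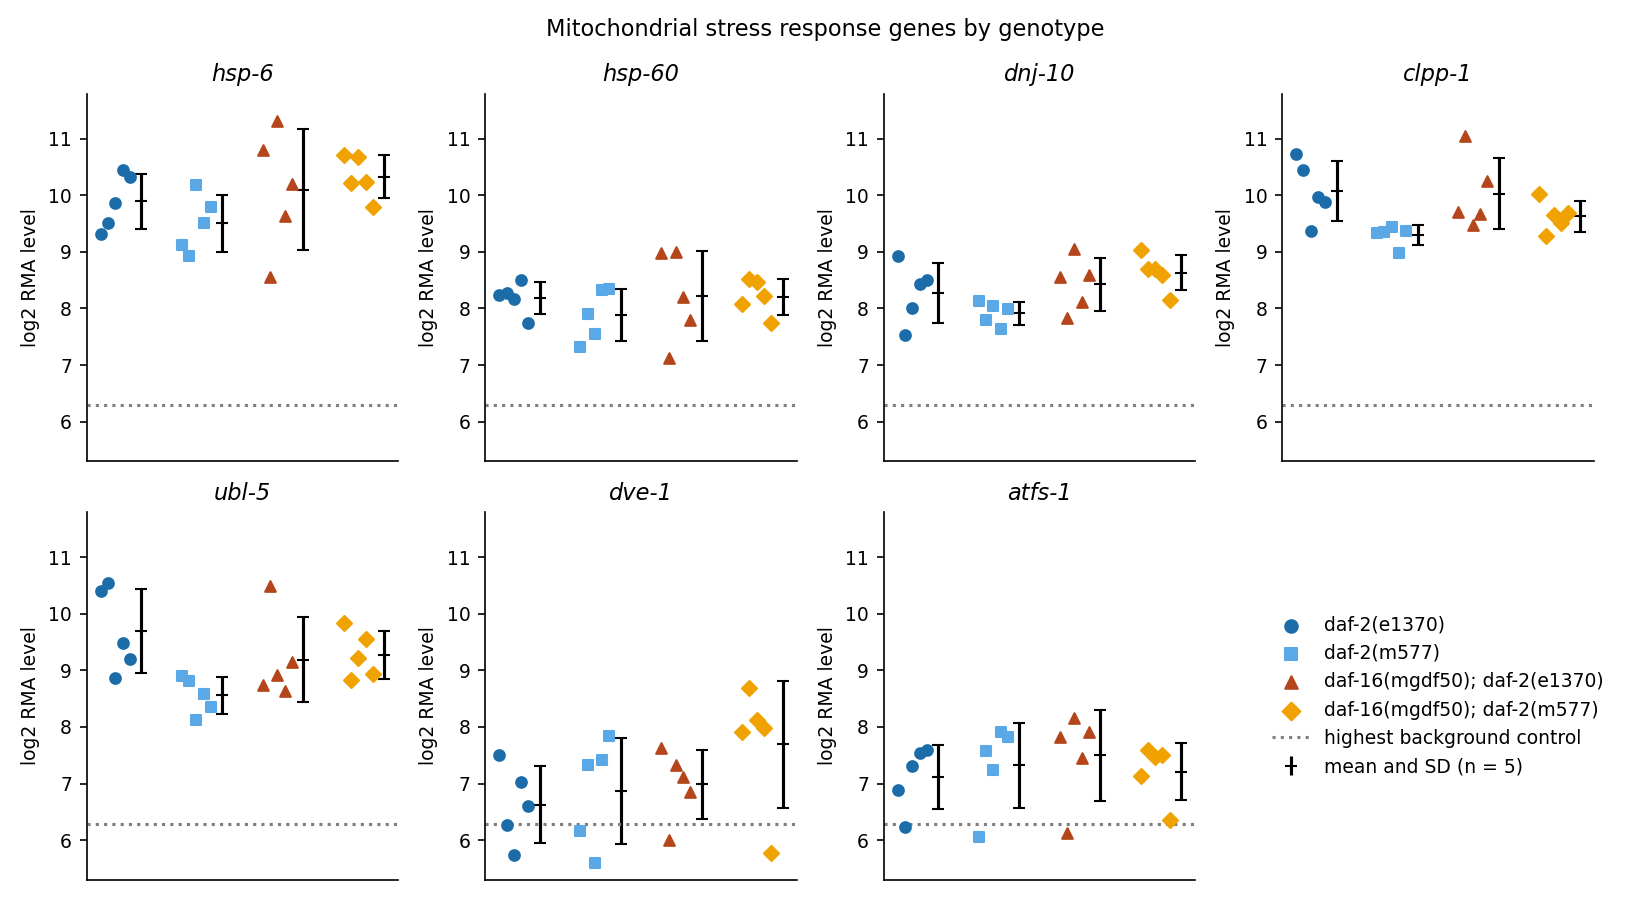
Level of each of the 7 genes (log2 RMA, y axis) on the 5 arrays of each genotype, as points, with the mean and SD beside them and the highest background control as a dotted line. Where genotypes differ in daf-16 alone or in the daf-2 allele alone, their points overlap in every panel except dnj-10, where all 5 m577 arrays lie below all 5 arrays of m577 without daf-16.

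*hsp-6* encodes the mitochondrial HSP70, the chaperone that pulls proteins into the matrix and helps them fold. With *daf-16* present its levels were 9.32, 9.51, 9.86, 10.45 and 10.32 in e1370 and 9.13, 8.92, 10.18, 9.51 and 9.79 in m577. Without *daf-16* they were 10.80, 8.56, 11.32, 9.63 and 10.20 in e1370 and 10.72, 10.23, 10.67, 10.23 and 9.80 in m577. The groups overlapped, and both the lowest and the highest of the 20 values came from e1370 without *daf-16*, on replicates 2 and 3. With *daf-16* present the level differed by -0.82 ± 0.40 in m577, a ratio of 0.565 (limma adjusted p = 0.397), and by -0.21 ± 0.40 in e1370 (95% interval -1.05 to 0.64). The second probe set, 192644_at, followed the first from array to array (r = 0.88 within genotypes, 20 arrays), yet its difference in m577 was -0.02 ± 0.52, so the probe sets did not give the same size.

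*hsp-60* encodes the chaperonin that encloses and folds proteins in the matrix. Its levels were 8.24, 8.27, 8.17, 8.51 and 7.74 in e1370 and 7.33, 7.90, 7.55, 8.33 and 8.35 in m577. In the absence of *daf-16* they were 8.98, 7.13, 9.00, 8.20 and 7.80 in e1370 and 8.08, 8.52, 8.48, 8.22 and 7.74 in m577. The genotype means spanned only 0.33, less than the SD within e1370 without *daf-16* (0.80), and the groups overlapped. Over both alleles the difference was -0.18 ± 0.22 (95% interval -0.63 to 0.28, limma adjusted p = 0.755). Probe set 176345_s_at was dimmer, with levels from 6.55 to 7.78, and followed the main probe set loosely (r = 0.47 within genotypes). In m577 the probe sets differed in sign, at -0.32 ± 0.31 on the main one and 0.32 ± 0.16 on 176345_s_at, as they did for the difference between differences, at 0.28 ± 0.43 and -0.48 ± 0.23 (limma adjusted p = 0.97 and 0.899). The gene beside *hsp-60* on chromosome III, Y22D7AL.10, a homologue of the chaperonin's partner HSP10, was chosen after its values were seen. Its level was 9.09 ± 0.20 in m577 and 9.65 ± 0.12 in m577 without *daf-16* (SD, n = 5), a difference of -0.56 ± 0.23 (limma adjusted p = 0.301).

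*dnj-10* encodes a DnaJ co-chaperone that works with the mitochondrial HSP70. Its levels were 8.92, 7.53, 8.02, 8.43 and 8.50 in e1370 and 8.13, 7.79, 8.05, 7.63 and 8.00 in m577. Without *daf-16* the levels were 8.56, 7.83, 9.04, 8.11 and 8.59 in e1370 and 9.03, 8.70, 8.70, 8.58 and 8.16 in m577. Here the m577 arrays, at 7.63 to 8.13, did not overlap those of m577 without *daf-16*, at 8.16 to 9.03 (n = 5 and 5). Any groups of 5 arrays without overlap give the same exact permutation p (0.00794, 2-sided), so that p adds nothing to the separation. With 6.66% of all probe sets not overlapping here, such a separation was common. The difference of -0.72 ± 0.24, a ratio of 0.609, missed the limma threshold (adjusted p = 0.186), and over both alleles it was -0.43 ± 0.17 (adjusted p = 0.197). A measure of RNA integrity and labelling moved with it: the excess of 3' over 5' signal in the control transcripts of actin, GAPDH and ubiquitin was 1.33 ± 0.16 in m577 and 1.87 ± 0.25 in m577 without *daf-16* (SD, n = 5), with no overlap between them. Over the 20 arrays *dnj-10* followed this measure with r = 0.72, and with r = 0.65 within genotypes, where 0.187% of all genes had an r at least as high. A fit of only these genotypes, which estimates the spread from fewer arrays, called *dnj-10* at the same size (limma adjusted p = 0.0427). That fit called 780 of all 22548 probe sets, against 404 in the fit of all arrays. With the 3' minus 5' measure as a covariate the *dnj-10* difference in m577 was 0.05 (limma adjusted p = 0.997). As the measure does not overlap between these genotypes, that fit cannot separate it from *daf-16*. The part of RNA integrity in the *dnj-10* difference was not tested. The second probe set, 175860_s_at, followed the first (r = 0.83) but had 12 of its 20 values inside the range of the background controls.

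**Figure D2:**
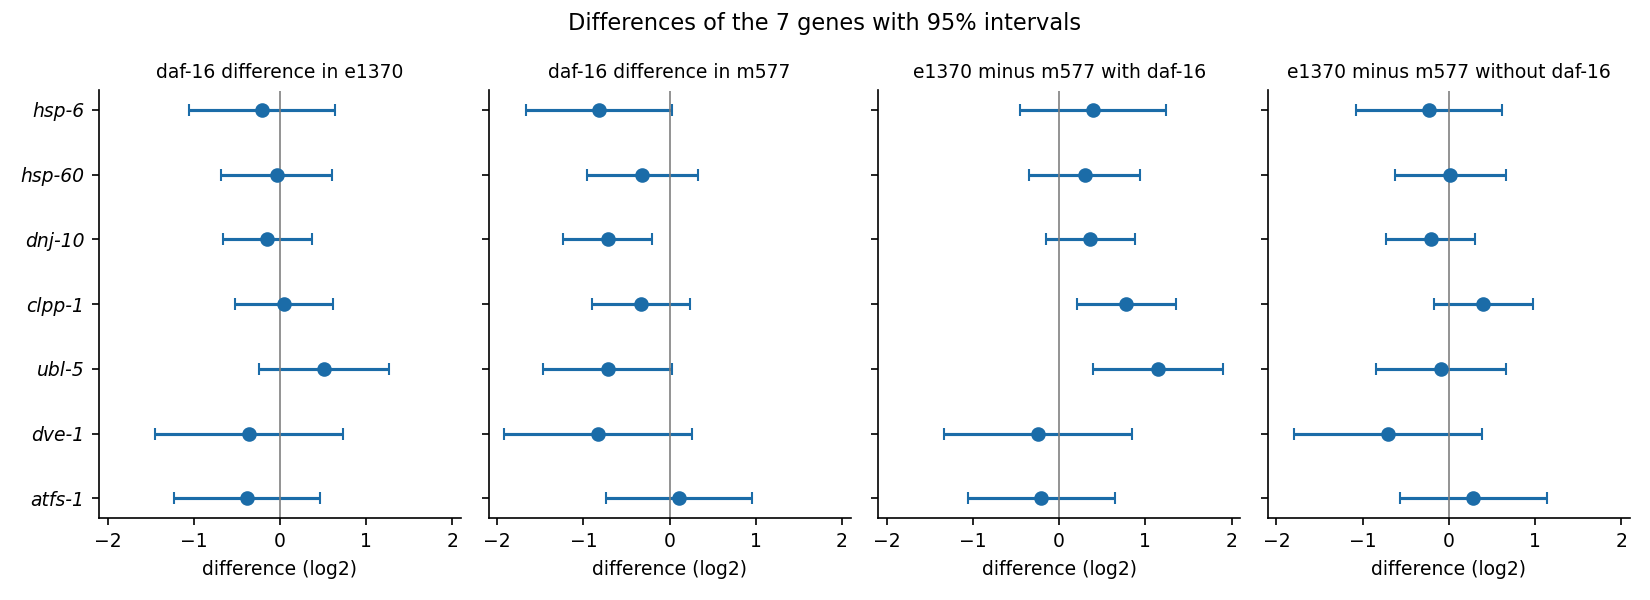
Differences of the 7 genes (log2, x axis) in 4 comparisons, as points with their 95% intervals from limma. The intervals of dnj-10 in m577, and of clpp-1 and ubl-5 between the alleles with daf-16, leave out 0, but no gene passed after adjustment over all probe sets.

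*clpp-1* encodes the proteolytic subunit of the matrix ClpP protease. Its levels were 10.73, 10.45, 9.36, 9.97 and 9.88 in e1370 and 9.34, 9.36, 9.45, 8.98 and 9.37 in m577. In animals lacking *daf-16* they were 9.71, 11.04, 9.47, 9.68 and 10.26 in e1370 and 10.03, 9.28, 9.65, 9.51 and 9.69 in m577. The m577 arrays were the low group, and 1 of the e1370 arrays lay among them. The alleles differed by 0.78 ± 0.27 with *daf-16*, a ratio of 1.72 (limma adjusted p = 0.161), and by 0.40 ± 0.27 without it (limma adjusted p = 1). On probe set 190263_at the levels with *daf-16* were 9.97, 9.61, 8.83, 9.58 and 9.75 in e1370 and 7.87, 8.75, 8.80, 8.69 and 8.82 in m577. These groups do not overlap (n = 5 and 5, beside 3.02% of all probe sets that do not overlap there), although the nearest arrays, at 8.83 and 8.82, almost touch. The differences between the alleles on 190263_at, 0.96 ± 0.29 with *daf-16* and 0.91 ± 0.29 without, were close to each other, and neither passed (limma adjusted p = 0.103 and 1). The difference that *daf-16* made to *clpp-1* was -0.14 ± 0.19 over both alleles (95% interval -0.55 to 0.26).

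*ubl-5* encodes a ubiquitin-like protein that joins DVE-1 in the response. Its levels were 10.41, 10.55, 8.87, 9.49 and 9.198 in e1370 and 8.91, 8.82, 8.13, 8.59 and 8.35 in m577. Where *daf-16* was lost they were 8.75, 10.49, 8.92, 8.63 and 9.16 in e1370 and 9.84, 8.83, 9.22, 9.56 and 8.94 in m577. The highest values were those of e1370 replicates 1 and 2 and of e1370 without *daf-16* replicate 2, and the other values of the latter genotype were no higher than 9.16. e1370 and m577 differed by 1.14 ± 0.36 with *daf-16*, a ratio of 2.21 and the largest difference of any of the 7 genes in the comparisons of single genotypes (limma adjusted p = 0.115), and by -0.09 ± 0.36 without it (95% interval -0.84 to 0.66). The *daf-16* difference was 0.51 ± 0.36 in e1370 and -0.72 ± 0.36 in m577. The test of the difference between them gave 1.23 ± 0.51 (limma adjusted p = 0.774), so the opposite signs were not shown to differ. With the 3' minus 5' measure as a covariate the m577 difference was -0.03 and the difference between differences 0.67, and *ubl-5* followed that measure with r = 0.40 within genotypes, where 3.93% of genes had an r at least as high. The measure did not overlap between m577 and m577 without *daf-16*, so this fit cannot separate it from *daf-16* there. Without replicate 2 of e1370 without *daf-16*, the contrast of e1370 with m577 kept its size and had a limma adjusted p of 0.045, since that array is in neither group but enters the shared estimate of the spread. The probe set carries the array's x suffix, which marks probes that may match other transcripts.

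*dve-1* encodes a homeodomain protein that binds chromatin near chaperone genes, and *atfs-1* the bZIP factor that mitochondrial import holds in check. *dve-1* levels were 7.50, 6.27, 5.74, 7.02 and 6.60 in e1370 and 6.17, 7.33, 5.60, 7.42 and 7.84 in m577. Without *daf-16* the levels were 7.63, 6.01, 7.32, 7.11 and 6.86 in e1370 and 7.90, 8.70, 8.12, 7.99 and 5.77 in m577. Of these 20 values, 6 lay inside the range of the background controls, and m577 without *daf-16* held the 4 highest values and also the third lowest. Its difference was -0.83 ± 0.52 in m577 (limma adjusted p = 0.501) and -0.36 ± 0.52 in e1370. In m577 it was -1.31 without replicate 5 of m577 lacking *daf-16*, -0.51 without m577 replicate 3 and -0.32 as the mean over both probe sets. Its probe sets hardly followed each other (r = 0.11 within genotypes), so the pattern belongs to 175379_at and not to 185625_at, which stayed between 6.05 and 6.99. *atfs-1* levels were 6.89, 6.23, 7.30, 7.55 and 7.60 in e1370 and 6.05, 7.58, 7.24, 7.92 and 7.82 in m577. In the absence of *daf-16* they were 7.82, 6.14, 8.17, 7.46 and 7.92 in e1370 and 7.14, 7.59, 7.47, 7.51 and 6.35 in m577. Each of the groups other than m577 without *daf-16* held 1 *atfs-1* value inside the background range, and all groups overlapped. The *atfs-1* difference was -0.38 ± 0.40 in e1370 (95% interval -1.23 to 0.47) and 0.11 ± 0.40 in m577 (95% interval -0.74 to 0.96).

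Over both alleles the differences of all 7 genes were negative on their main probe sets, although none was called. They ran from -0.59 to -0.10 with a median of -0.18, where 54.4% of all probe sets were positive and their median was 0.02. The shared sign did not extend to the second probe sets of *hsp-60* (0.08 ± 0.11), *clpp-1* (0.03 ± 0.20) and *dve-1* (0.0028 ± 0.12). On the second probe set of *hsp-6* almost no difference was left (-0.0024 ± 0.37), and the dim one of *dnj-10* was at -0.32 ± 0.24. With the 3' minus 5' measure as a covariate *dnj-10* was at 0.02, *clpp-1* at 0.19 and *ubl-5* at 0.31, while *hsp-60* was more negative, at -0.35. The main differences of *hsp-6* and *dve-1* stayed negative under every other setting. The *ubl-5* difference was 0.06 without replicate 2 of e1370 lacking *daf-16*, and 0.00 without e1370 replicate 3. That of *atfs-1* was 0.02 without m577 replicate 1. The medians were -0.15 in e1370 and -0.72 in m577, beside -0.00 and 0.03 for all probe sets. These comparisons share arrays with each other. Between the alleles with *daf-16* the median was 0.36 with 5 of 7 positive, beside -0.05 and 42.2% for all probe sets. Without *daf-16* it was -0.09 with 3 of 7 positive, beside -0.00 and 48.6%. Ordering the genotype means of each gene gives 21 neighbouring pairs. Only 1 of them, *clpp-1* in m577 and in m577 without *daf-16*, was farther apart than the larger SD of the pair. Neighbours in such an order are the closest means by construction, so this count says little about means farther apart. The lowest and highest means were 0.82 apart for *hsp-6*, 0.33 for *hsp-60*, 0.72 for *dnj-10* and 0.78 for *clpp-1*. For *ubl-5*, *dve-1* and *atfs-1* they were 1.14, 1.07 and 0.38 apart. On the main probe sets m577 was the lowest genotype for *hsp-6*, *hsp-60*, *dnj-10*, *clpp-1* and *ubl-5*, and e1370 was the lowest for *dve-1* and *atfs-1*. The second probe sets kept this for *hsp-6*, *dnj-10* and *dve-1*. On that of *hsp-60* m577 was at 7.21 against 6.89 in m577 without *daf-16*, and on that of *clpp-1* both were at 8.58. Markers of other tissues moved over the same arrays. With *daf-16* present 8 of 13 intestine markers were lower and 1 higher over both alleles, where 6.32% of all probe sets were called. The list means were 7.95 to 8.83 in e1370 and 9.12 to 10.41 in e1370 without *daf-16*. The sperm list, with no more than 1 of 43 genes called, had a median difference of -0.11 in e1370 and -1.18 in m577. The oocyte and germ cell list, with 0 of 42 called, had medians of -0.32 over both alleles, where 3 of 42 genes were positive, -0.21 in e1370 and -0.47 in m577. The part of the intestine in the differences of the 7 genes was not tested. With the sperm and oocyte means as covariates the *hsp-6* difference over both alleles was -0.11 in place of -0.52 ± 0.28. Those of *hsp-60* and *atfs-1* were 0.06 and 0.21, and those of *clpp-1* and *ubl-5* were more negative, at -0.39 and -0.35. In that fit *clpp-1* and *ubl-5* were called between the alleles with *daf-16*, at 0.94 and 1.35 (limma adjusted p = 0.036 and 0.0185). It called 1404 of all 22548 probe sets in this comparison, against 297 without covariates.

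**Figure D3:**
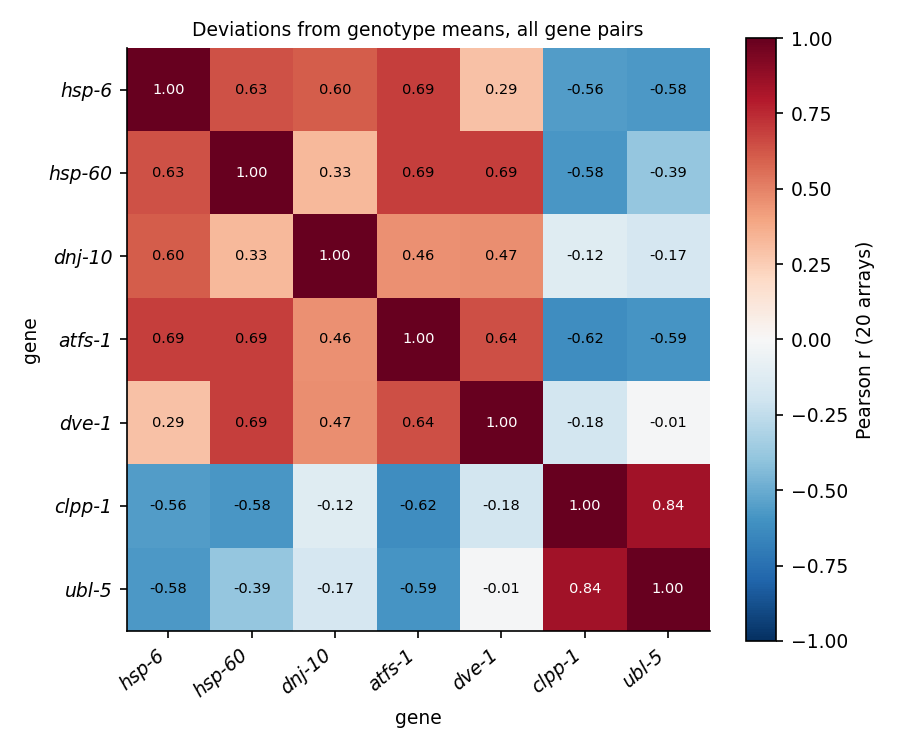
Pearson r between the genes over 20 arrays after the mean of each genotype was taken off, for all 21 pairs. hsp-6, hsp-60, dnj-10, atfs-1 and dve-1 have positive r with each other, clpp-1 and ubl-5 have r = 0.84 with each other, and all r between the sets are negative.

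Arrays of the same genotype varied more in each of these genes than in the median probe set. The SD within genotypes was 0.67 for *hsp-6*, 0.67 for *atfs-1*, 0.86 for *dve-1*, 0.59 for *ubl-5*, 0.50 for *hsp-60*, 0.45 for *clpp-1* and 0.40 for *dnj-10*, beside a median of 0.37 over all probe sets. *dnj-10* and *clpp-1* lay near that median, at percentiles 54.6 and 60.5 of all probe sets, and *dve-1* was at percentile 93.1. The genes followed each other in this variation, as a description without a test. Within genotypes *hsp-6* had r = 0.69 with *atfs-1*, 0.63 with *hsp-60* and 0.60 with *dnj-10*, and *clpp-1* had r = 0.84 with *ubl-5*, a value that 1.69% of all genes reached with *ubl-5*. The 10 pairs among *hsp-6*, *hsp-60*, *dnj-10*, *dve-1* and *atfs-1* ranged from 0.29 to 0.69. The 10 pairs between these 5 genes and *clpp-1* or *ubl-5* ranged from -0.62 to -0.01. This split was drawn after the values were seen. On e1370 without *daf-16* replicate 2, the array least like its group, *hsp-6* and *hsp-60* had their lowest values of all 20 arrays and *clpp-1* its highest.

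**Figure D4:**
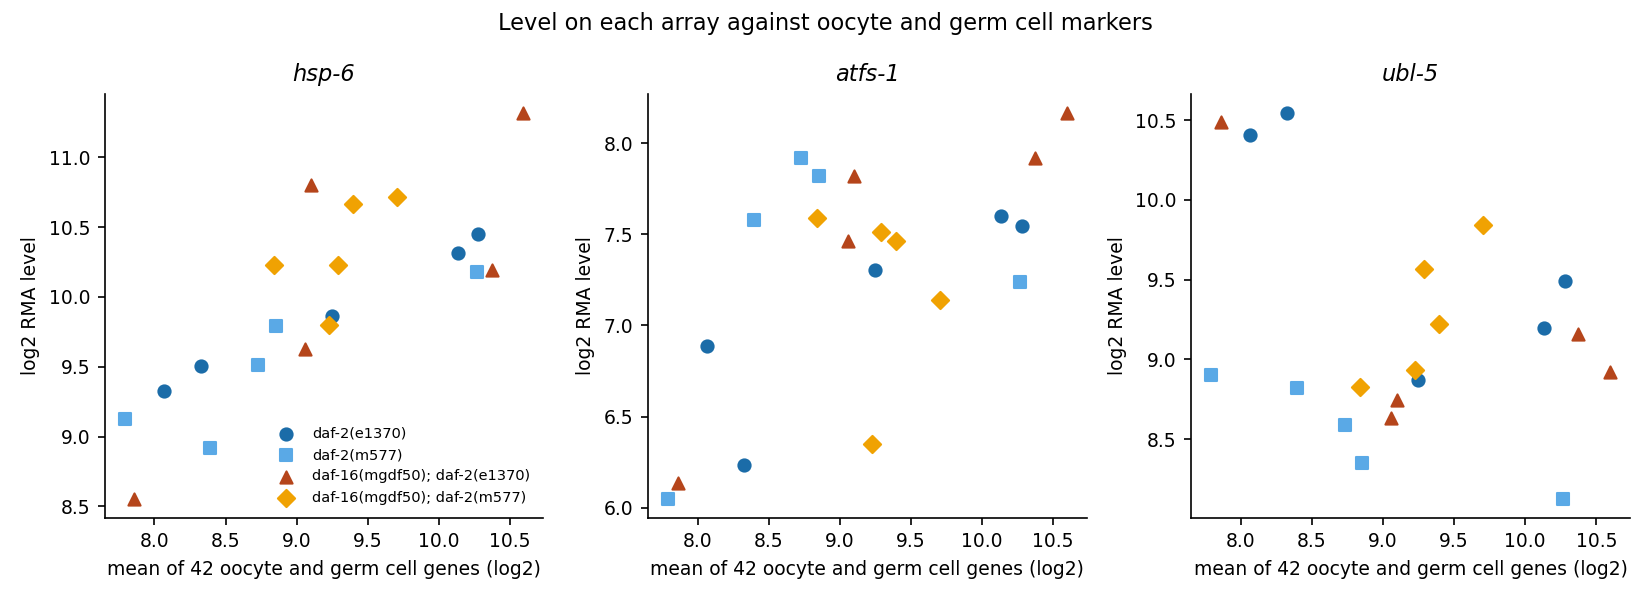
Level of hsp-6, atfs-1 and ubl-5 (log2 RMA, y axis) against the mean of 42 oocyte and germ cell genes (log2, x axis), 1 point per array with a symbol for each genotype. hsp-6 climbs along the x axis with r = 0.81 over 20 arrays, atfs-1 with r = 0.61, and ubl-5 has r = -0.33.

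Among the 6 marker lists, *hsp-6* followed the oocyte and germ cell genes most closely. Its r with their mean was 0.81 over 20 arrays (Spearman 0.81), 0.74 without the 2 arrays farthest from the median of that mean, and 0.81 within genotypes. Of all genes, 7.83% had an r within genotypes at least as high. With the sperm genes its r was -0.17 over 20 arrays and -0.40 within genotypes, so the germ line lists did not move with it alike. *atfs-1* had r = 0.64 within genotypes (14.7% of genes at least as high), and *ubl-5* had r = -0.59 (15.6% as low or lower). The 84 pairs of a member with a list were all computed, and the 3 genes of the plot against germ cell markers were picked after that. Several soma lists were followed alike. Within genotypes *hsp-60* had r = 0.76 with intestine, 0.73 with body wall muscle and 0.63 with neurons. Over 20 arrays these were 0.45, 0.60 and 0.53. *dve-1* had 0.78 with neurons, 0.70 with intestine and 0.61 with body wall muscle within genotypes. Of the 12 neuron markers, 4 had means inside the background range. The share of all genes with such r was not computed for these lists. Lists of other genes were followed too. Within genotypes *hsp-6* had r = 0.80 with the other HSP70 genes, 0.79 with the other signalling genes of the response and 0.78 with the proteases and prohibitins. None of these was above its 0.81 with the oocyte and germ cell genes. *atfs-1* had 0.90 with the other signalling genes, 0.82 with the proteases and prohibitins and 0.82 with the other HSP70 genes. *hsp-60* had 0.82 with the other signalling genes, *dnj-10* had 0.82 with the proteases and prohibitins, and *ubl-5* and *clpp-1* had -0.84 and -0.82 with the other HSP70 genes. Over 20 arrays the r of *ubl-5* and *clpp-1* there were -0.68 and -0.64 (Spearman -0.52 and -0.29). Without replicate 2 of e1370 and of e1370 lacking *daf-16*, the 2 arrays farthest from that list's median, they were -0.36 and -0.23. By the same rule *hsp-6*, *hsp-60* and *atfs-1* had 0.49, 0.52 and 0.82 with the other signalling genes. The share of all genes was not computed for these lists either. Points of a genotype share strain and normalization, so these r values describe the arrays and do not assign a gene to a tissue.

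The genes most like each member over the 20 arrays were found among all genes. For *hsp-6* they were *imb-1*, an importin beta, *cdc-73*, a subunit of the Paf1 complex, and *lis-1*, a regulator of dynein, with r from 0.94 to 0.92. For *hsp-60* they were *unc-132*, *pdhb-1*, a subunit of mitochondrial pyruvate dehydrogenase, and M01E5.3, with r from 0.88 to 0.87. For *dnj-10* they were *acdh-13*, an acyl-CoA dehydrogenase, *marc-6* and *ari-2*, all at 0.88. *clpp-1* was most like F45G2.9, *ncbp-2*, a subunit of the nuclear cap-binding complex, and *ddp-1*, a small carrier of the mitochondrial intermembrane space, with r from 0.95 to 0.94. *ubl-5* was most like *moag-4*, *nepr-1* and *arch-1*, with r from 0.96 to 0.95. *dve-1* was most like *unc-22*, the giant muscle protein twitchin and a muscle marker here, *pak-1*, a kinase, and *nck-1*, an adaptor protein, with r from 0.95 to 0.93. *atfs-1* was most like T04A8.7, *golg-2* and B0303.4, with r from 0.93 to 0.92.

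Other genes that keep mitochondria were read through lists drawn up by function. Of the 5 other mitochondrial chaperones, which are homologues of HSP10, GrpE and TRAP1 and the DnaJ proteins *dnj-21* and *dnj-15*, none was called in any of the 6 comparisons. All 5 differences were negative in m577, with a median of -0.31, where 55.1% of all probe sets were positive. All 5 were positive between the alleles, with a median of 0.63 with *daf-16* and 0.22 without it. Of all probe sets, 42.2% and 48.6% were positive there. The comparisons share arrays, and a common shift of the list was not tested. None of the 14 measured genes of mitochondrial dynamics and mitophagy was called either. Of 14 genes on the list of proteases and prohibitins, 1 rose and 1 fell over both alleles, a comparison in which 6.32% of all probe sets were called. *D2030.2*, a homologue of the ClpX subunit that feeds proteins to ClpP, rose by 0.58 ± 0.16 with *daf-16* present (limma adjusted p = 0.031), with means of 10.09 in e1370 and 10.04 in m577 against 9.45 and 9.53 without *daf-16*. *lonp-2*, a homologue of the peroxisomal Lon protease of mammals, fell by 0.76 ± 0.22 on the log2 scale (limma adjusted p = 0.0423), from 8.03 and 8.79 to 7.18 and 8.11. Of 19 other signalling genes, only *tbb-6*, a beta-tubulin induced with the kinase PMK-3 under mitochondrial stress, was called, and its difference over both alleles was 1.104 ± 0.31 (limma adjusted p = 0.0415). *haf-1*, a peptide exporter of the inner membrane, had all its genotype means inside the background range, from 5.22 to 5.68, and was named after its values were seen.

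**Figure D5:**
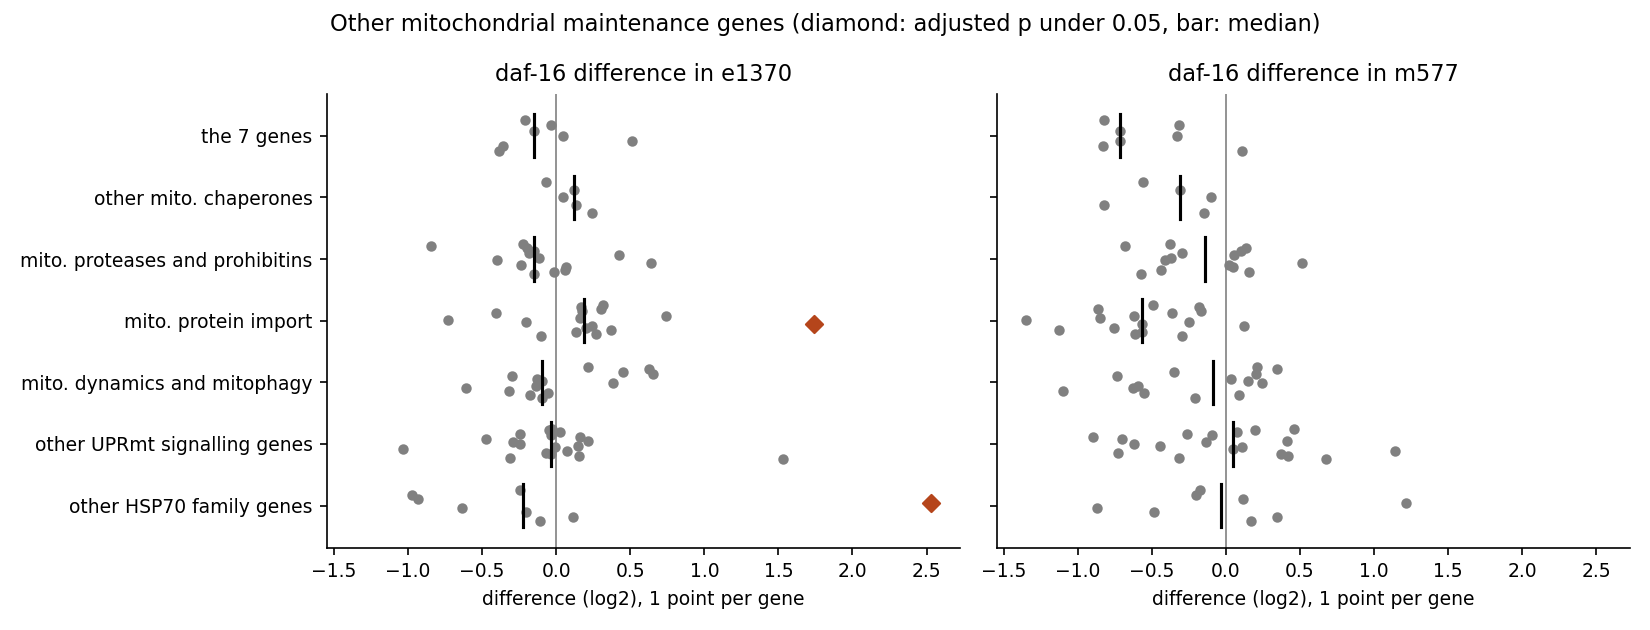
Differences made by daf-16 (log2, x axis) in e1370 and in m577 for the 7 genes and 6 other lists, 1 point per gene, with a bar at each list's median and a diamond where the limma adjusted p was under 0.05. The import list has its median at 0.19 in e1370 and at -0.57 in m577, and the only diamonds are tin-9.1 and hsp-70 in e1370.

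Of 16 measured genes of the import machinery, which brings ATFS-1 and the chaperones into the matrix, 1 was called over both alleles and 1 in e1370. The shares of all probe sets called were 6.32% and 4.38%. *timm-17B.2*, a paralogue of the inner membrane channel protein TIM17, was lower by -1.04 ± 0.26 over both alleles with *daf-16* present (limma adjusted p = 0.0185), at 8.90 ± 0.69 in e1370 and 8.33 ± 0.17 in m577 against 9.62 ± 0.75 and 9.68 ± 0.64 without *daf-16* (SD, n = 5). *tin-9.1*, a small carrier chaperone of the intermembrane space, was higher by 1.74 ± 0.37 in e1370 (limma adjusted p = 0.00775), at 9.25 ± 0.68 against 7.51 ± 0.90. The list's median difference was 0.19 in e1370 and -0.57 in m577. For the difference between those differences 15 of 16 genes were positive, with a median of 0.75, and between the alleles with *daf-16* 15 of 16 were positive, with a median of 0.83. None of the 16 was called in either comparison, where 45% and 42.2% of all probe sets were positive. Among 8 measured HSP70 genes of other compartments, *hsp-70*, a heat-inducible cytosolic member, was the only call. With *daf-16* present it rose by 2.53 ± 0.45 in e1370 (limma adjusted p = 0.00156), and the rise averaged over the alleles was 1.87 ± 0.32 (limma adjusted p = 0.000796), with means of 8.57 ± 1.38 in e1370 and 6.03 ± 0.28 in e1370 without *daf-16*. The latter lies inside the background range, which limits the size of that difference.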

How the data were processed

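Per the labels' protocols, scanner images of the 20 arrays were read in Microarray Suite (MAS) 5.0 and normalized together by RMA in R, with version 1.4.14 of the Affymetrix package. The deposited values are taken as log2 expression from their range (4.06 to 14.27), since no label states the scale. Joint normalization makes arrays alike, so a change in total RNA would not be seen. Of 22625 probe sets, 77 Affymetrix controls were left out and 22548 tested. The array annotation gave 1 symbol for 20766, several for 887 and none for 895, and 20701 were matched by gene identifier to RefSeq genes (WBcel235, used for names and gene order). The sources used here give no build for the array design, so neither coordinates nor sequences are printed. Each of 17118 genes was represented by its brightest probe set, by mean over all arrays.

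The limma package (3.58.1, in R 4.3.3) fitted 1 mean for each genotype over the 20 arrays, without covariates, by lmFit, contrasts.fit and eBayes. All tests were 2-sided, with Benjamini-Hochberg adjustment over 22548 probe sets within each of 6 comparisons and a threshold of 0.05. Differences are *daf-16* present minus absent, or e1370 minus m577, with SE or 95% intervals. Adjusted p-values are from limma. A run of the fit on simulated data drew errors independently for each probe set and array. It did not cover variation shared by the probe sets of an array. The number of arrays (5 per genotype) limits the precision, and the labels do not say whether replicates were grown at separate times, so p-values measure the spread between these arrays.

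The members, lists and tests were chosen with earlier results of these data known. After the files were opened, unmatched names and *trap-1*, another protein in this worm, were dropped from the lists by name. Named genes were all members, up to 4 called genes per list with the largest change, and the 3 genes with the highest Pearson r with each member, and Y22D7AL.10 and *haf-1* were named outside this rule. Other settings were median centring, cyclic loess, a filter on dim probe sets, a robust intensity trend, array quality weights, 1 probe set per gene, a gene's probe sets averaged, only the genotypes compared, blocks for the replicate number and for the alias number of the labels, the 3' minus 5' measure or the sperm and oocyte means as covariates, leaving out the 3 arrays low in sperm genes, and leaving out each array. Figures were drawn with matplotlib 3.10.9.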

Additional observations from a re-analysis of the deposited data

Results flagged for a closer look

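In 7 of the 48 groups of 5 arrays formed by 12 probe sets and 4 genotypes, 1 array stood apart from the other 4 by a gap over 0.71 of the group's range, the critical value of Dixon's test. Chance sets apart about 1 in 20 groups. For *hsp-60* probe set 176345_s_at the gap was 0.735 of the range in e1370 without *daf-16*, where replicate 3 was high at 7.78, and 0.808 in m577 without *daf-16*, where replicate 1 was low at 6.55. For *clpp-1* in m577 it was 0.768 on 173080_s_at, with replicate 4 low at 8.98, and 0.863 on 190263_at, with replicate 1 low at 7.87, so the probe sets did not single out the same array. For *ubl-5* in e1370 without *daf-16* it was 0.718, with replicate 2 high at 10.49. For *dve-1* it was 0.729 on 175379_at in m577 without *daf-16*, with replicate 5 low at 5.77, and 0.745 on 185625_at in e1370 without *daf-16*, with replicate 2 low at 6.23. No difference between the *daf-16* differences of the 7 genes passed the test.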

How the results depend on the processing

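Counts of called members, 0 of 7 in all 6 comparisons, moved under 4 of the other settings. With array quality weights 1 member was called over both alleles (*dnj-10*, -0.47), 3 in m577 (*hsp-6* -0.95, *dnj-10* -0.85 and *ubl-5* -0.78), 1 for the difference between differences (*ubl-5*, 1.46) and 2 between the alleles with *daf-16* (*clpp-1* 0.74 and *ubl-5* 0.95). That setting also moved the calls over all probe sets from 404 to 6645 in m577 and from 297 to 2611 between the alleles with *daf-16*. A fit of only the genotypes compared called 1 in m577 (*dnj-10*, limma adjusted p = 0.0427), and the sperm and oocyte covariates called 2 between the alleles with *daf-16*. Over all probe sets these fits called 780 and 1404 in those comparisons, against 404 and 297. Leaving out 1 array at a time gave 0 to 1 between the alleles with *daf-16*, the call being *ubl-5* without e1370df50 replicate 2 (that genotype being e1370 without *daf-16*), and 0 in the other 5 comparisons. The calls over all probe sets between these alleles then ran from 121 to 695. Of 1372 member differences recomputed, 11 were called and 57 changed sign, none of them both. Over all probe sets the weights gave 3390 calls over both alleles (1425 otherwise), 1113 for the difference between differences (40) and 99 between the alleles without *daf-16* (1). The block for the alias number gave 6 for the difference between differences and 30 between the alleles with *daf-16*, and the fit of only the genotypes compared gave 507 in e1370 (987). With the 3' minus 5' covariate the calls over all probe sets were 58 in m577 and 643 over both alleles, against 404 and 1425. For the difference between differences they were 16 with that covariate and 134 with the sperm and oocyte covariates. The cause was not tested for these changes.

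Over 30 pairs of same-numbered arrays, the correlation of deviations from the genotype means ran from -0.54 to 0.82, and 14 were over 0.1. Arrays with different numbers were not correlated for reference, so these values cannot decide whether the numbers pair the arrays. The alias numbers were not looked at in this way. With the replicate block the member counts were 0 in all 6 comparisons, and the calls over all probe sets were 1430, 1032, 391, 40, 225 and 3, against 1425, 987, 404, 40, 297 and 1. Low signal limits *dve-1*, *atfs-1* and the dimmer *dnj-10* probe set.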
